A study of Mus musculus with 18 samples.

Results

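The ligands of the epidermal growth factor (EGF) receptor and neuregulin 1 were followed as a set of 8 genes, Areg, Ereg, Hbegf, Tgfa, Btc, Epgn, Egf and Nrg1, across every RNA library of a skin carcinogenesis study in mice. The genes were chosen by name, and all 8 were found once each among the 52636 genes of the deposited count table.

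The study compared C57BL/6 littermates that carried floxed alleles of Zfp36 without Cre (Zfp36 fl/fl) with mice in which Cre under a human keratin 14 promoter deleted Zfp36 in keratin 14 expressing epithelium (Zfp36 ΔK14). The protein product of Zfp36, tristetraprolin (TTP), binds AU-rich elements and promotes the decay of messenger RNAs that carry them. Young adult mice received either mock treatment or the carcinogen DMBA followed by repeated applications of the tumor promoter TPA, and epidermal cells were sorted as EpCAM positive and negative for CD45, CD140a and CD31. The 6 groups were mock skin, DMBA/TPA-treated skin next to tumors ("treated", nontumoral although its cell type is labelled as tumoral), and papillomas ("tumor"), each in fl/fl and in ΔK14. The Cre driver acts in all keratin 14 expressing epithelium and not in tumors alone, and the labels name whole skin as the source although the protocol describes sorted cells. The protocol also names a TRIzol extraction of treated nontumoral skin beside the column extraction of sorted cells, without saying which libraries, if any, it was used for. Of 18 count columns, the third ΔK14 mock column was equal to the second in every gene, so it was counted once, which left 17 libraries, with n = 2 in ΔK14 mock skin and n = 3 in the other groups. The labels do not say whether libraries of a group came from separate animals, so p-values measure only the spread between these libraries.

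EGF family ligands are made as membrane-anchored precursors, cut from the cell surface by metalloproteases, and bound by receptor tyrosine kinases of the ErbB family. Areg (amphiregulin), Tgfa (transforming growth factor alpha), Epgn (epigen) and Egf act through EGFR; Hbegf (heparin-binding EGF-like growth factor), Ereg (epiregulin) and Btc (betacellulin) bind EGFR and ErbB4; Nrg1 (neuregulin 1) binds ErbB3 and ErbB4. In epidermis, the EGFR pathway is known for driving keratinocyte proliferation and wound closure, and keratinocytes make several of its ligands themselves.

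On the GRCm38 assembly (mm10) in GENCODE M21, 4 of the 8 genes lay in one stretch of chromosome 5 of 375.531 kb. Epgn was at chr5:91027464-91035215, Ereg at chr5:91074622-91093646 and Areg at chr5:91139599-91148432, all on the plus strand, and Btc was at chr5:91357261-91402994 on the minus strand. They were the only 4 protein-coding genes among 7 annotated genes from the start of Epgn to the end of Btc. Tgfa was on chr6:86195223-86275719 (plus strand), Egf on chr3:129677565-129755316 and Nrg1 on chr8:31814551-32884029 (both minus strand).

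Because AU-rich elements carry the core word ATTTA, the 3′ untranslated regions (3′UTRs) of the ligand genes were searched for ATTTA and for the longer TATTTAT, which contains it, on the transcript strand. Of 21062 genes with an annotated 3′UTR, 65.7% held ATTTA and 27.4% held TATTTAT. The 3′UTR of Areg was 253 bases long and held 4 ATTTA words and 1 TATTTAT word. At least as many were held by 28.3% of genes for ATTTA and 27.4% for TATTTAT. All 4 ATTTA words of Areg lay inside one stretch of 30 bases, a density matched or passed by 0.589% of genes. That of Ereg (3501 bases) held 9 ATTTA and 3 TATTTAT words, that of Nrg1 (3477 bases) held 9 and 1, that of Egf (3172 bases) held 6 and 2, those of Hbegf (1456 bases) and Tgfa (3764 bases) held 4 and 2 each, and that of Btc (2069 bases) held 4 and 0. Epgn was the member with no ATTTA in its 3′UTR (1242 bases), as in 34.3% of genes. The densest 30 bases of 4 members are shown 5′ to 3′ from GENCODE M21 transcripts, with ATTTA in capitals. Those of Egf, not shown, held 2 ATTTA words, as did those of Ereg and Nrg1. Those of Hbegf and Btc, also not shown, held 1, as did those of Tgfa. The windows shown span chr5:91148370-91148399 in Areg, chr5:91090919-91090948 in Ereg and chr6:86272433-86272462 in Tgfa (plus strand), and chr8:31814768-31814797 in Nrg1 (minus strand).
Areg: taATTTATTTAatATTTAagtgttATTTAt
Ereg: gagtATTTAtttttatagggaATTTActga
Tgfa: ggatgcgtgtcttATTTAttagatggataa
Nrg1: ttcctttattATTTAtATTTAaacatctaa
A match of letters is a description of the annotated transcript and does not show that TTP binds it.

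The 17 libraries held 2808550 to 9617985 counts (median 5567614). Zfp36, the deleted gene, stood at 152 to 713 CPM (counts per 1000000 counts of the library, with library sizes scaled by the TMM method of edgeR) in the 9 fl/fl libraries and at 10.05 to 38.4 CPM in the 8 ΔK14 libraries, with no overlap. Basal keratinocyte markers were abundant in every library (Krt5 at 1422 to 12099 CPM and Krt14 at 602 to 15665 CPM). Among leukocyte markers, Ptprc was at 3 counts or fewer in 13 of 17 libraries and Cd3e was at 0 in 13 of 17, while Cd74 (5.31 to 172 CPM) and Csf1r (1.69 to 5.30 CPM) were above 3 counts in all 17, and the sum of the 9 markers ran from 11.3 to 179 CPM, highest in ΔK14 treated replicate 3. Mock replicate 1 stood apart in both genotypes: the summed level of 7 hair matrix and shaft genes was 1633 CPM in fl/fl and 1664 CPM in ΔK14, against 10.2 to 14.7 CPM in the other mock libraries. Tumor fl/fl replicate 1, the library with the fewest counts, held 31405 CPM of the 6 basal keratinocyte markers, against 8716 and 8767 CPM in the other fl/fl tumors and 24859 to 26365 CPM in ΔK14 tumors. Member calls that changed without 1 of these libraries are given beside the result. In RNA from many cells, fewer cells of a type and less RNA per cell cannot be told apart.

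In mock skin, Epgn and Hbegf had the highest counts, Areg, Tgfa and Nrg1 had lower ones, and Ereg, Btc and Egf were near the detection limit, while in tumors Areg, Ereg, Hbegf, Tgfa, Epgn and Nrg1 all stood above 100 CPM in every library. The values of each gene in every library are given below in the order of replicates 1, 2 and 3 (1 and 2 for ΔK14 mock skin).

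**Figure D1:**
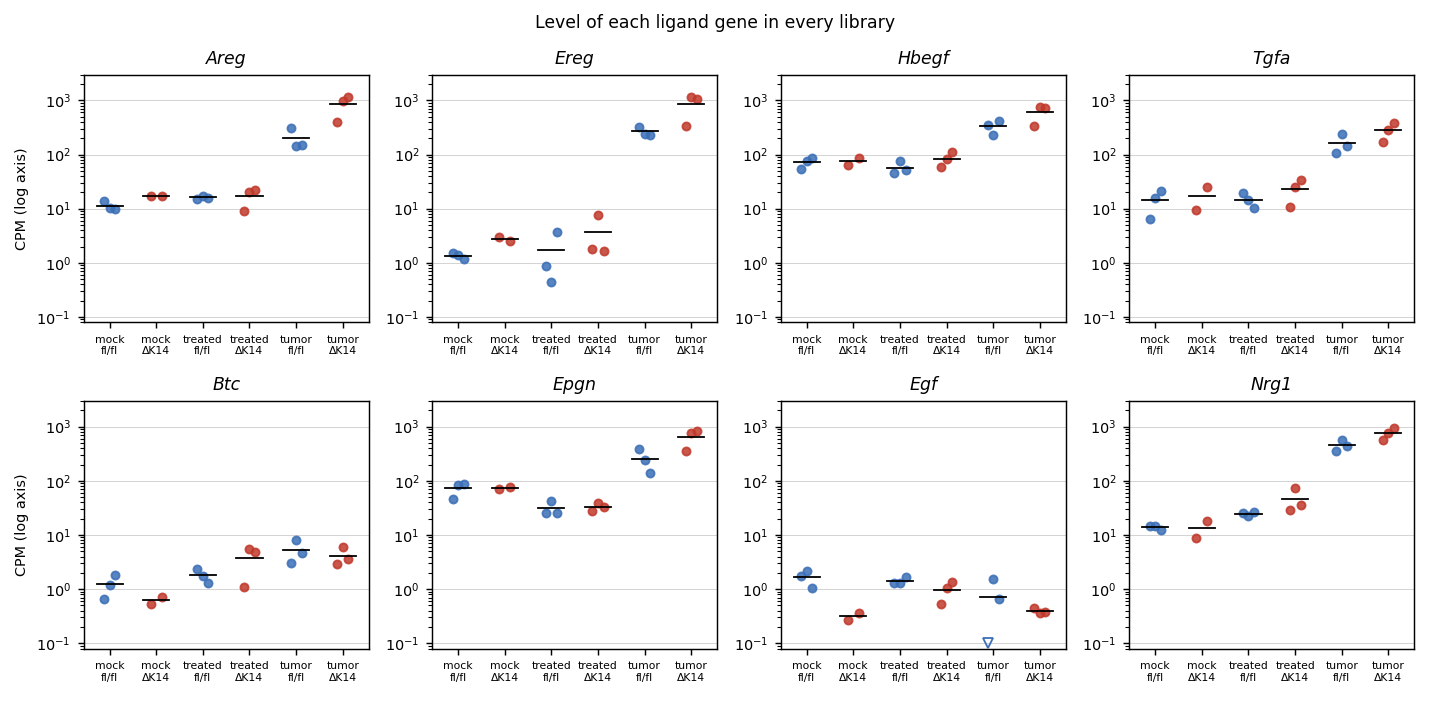
Level of each ligand gene in CPM (log axis) in every library, by group; blue circles are fl/fl libraries, red circles ΔK14 libraries, black lines group means, and the open triangle a library with no count. Areg rose from 9.12 to 21.7 CPM in mock and treated skin to 142 to 1144 CPM in tumors, whereas Egf stayed at or below 2.15 CPM in every library.

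Areg, a ligand of EGFR that keratinocytes release in an autocrine manner, stood at 13.9, 10.2 and 9.93 CPM in fl/fl mock skin and at 16.99 and 16.88 CPM in ΔK14 mock skin. It stood at 15.1, 17.5 and 15.8 CPM in fl/fl treated skin and at 9.12, 20.01 and 21.7 CPM in ΔK14 treated skin. It reached 314, 142 and 150.2 CPM in fl/fl tumors and 403, 984 and 1144 CPM in ΔK14 tumors. Every tumor library was above every skin library, and the ΔK14 tumors were all above the fl/fl tumors. In the order of the group means, fl/fl treated, ΔK14 mock and ΔK14 treated skin overlapped their neighbours, while fl/fl mock skin lay below fl/fl treated skin without overlap.

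Tgfa, the ligand first described in transformed cells, stood at 6.41, 15.6 and 21.6 CPM in fl/fl mock skin and at 9.44 and 25.5 CPM in ΔK14 mock skin. It stood at 19.5, 14.2 and 10.4 CPM in fl/fl treated skin and at 10.7, 25.3 and 33.4 CPM in ΔK14 treated skin. It reached 108, 238 and 146 CPM in fl/fl tumors and 168, 289.5 and 382 CPM in ΔK14 tumors. The 4 skin groups overlapped each other along the order of their means, and the tumor groups overlapped each other above them.

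Epgn, a low-affinity EGFR ligand, lay lower in treated than in mock skin in both genotypes, without overlap. It stood at 45.7, 84.1 and 88.1 CPM in fl/fl mock skin and at 70.9 and 78.0 CPM in ΔK14 mock skin. It stood at 25.7, 41.7 and 25.5 CPM in fl/fl treated skin and at 27.5, 39.1 and 32.5 CPM in ΔK14 treated skin. It reached 383, 238 and 142 CPM in fl/fl tumors and 359, 774 and 822 CPM in ΔK14 tumors. Treated, mock and tumor libraries formed 3 levels without overlap, and within each level the genotypes overlapped.

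Egf, the founding member of the family, was barely detected. It held 11 to 16 counts per library in fl/fl mock skin (1.06 to 2.15 CPM), 1 count in each ΔK14 mock library, and 2 counts in each ΔK14 tumor library. In fl/fl tumors it held 0, 10 and 2 counts, and the library with none allows up to 1.503 CPM at a floor of 3 counts. Its exons share bases with 2 antisense genes, and whether the counting used strand is not given in the sources used here.

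Hbegf, which binds EGFR and ErbB4 and is known to be induced at wound edges, lies at chr18:36504927-36515805 on the minus strand of the same assembly. It stood at 54.0, 75.5 and 84.9 CPM in fl/fl mock skin and at 64.2 and 84.8 CPM in ΔK14 mock skin. It stood at 45.9, 75.8 and 51.0 CPM in fl/fl treated skin and at 57.9, 81.8 and 109.9 CPM in ΔK14 treated skin. It reached 356, 228 and 411 CPM in fl/fl tumors and 338, 760.1 and 714 CPM in ΔK14 tumors. All neighbouring skin groups overlapped, and the tumor groups, which also overlapped each other, lay above them.

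Ereg, the other EGFR and ErbB4 ligand of the chromosome 5 stretch beside Btc, was close to absent in skin. It stood at 1.55, 1.37 and 1.16 CPM in fl/fl mock skin and at 2.97 and 2.51 CPM in ΔK14 mock skin, from 7 to 14 counts per library. It stood at 0.865, 0.437 and 3.77 CPM in fl/fl treated skin and at 1.79, 7.54 and 1.69 CPM in ΔK14 treated skin. It reached 329, 241 and 232 CPM in fl/fl tumors and 336, 1152 and 1077 CPM in ΔK14 tumors. The 4 skin groups overlapped along their order and the tumor groups did not, although the lowest ΔK14 tumor library (336 CPM) lay just above the highest fl/fl one (329 CPM). Gm19610, an antisense gene that shares 141 exonic bases with Ereg, was also low in skin and higher in tumors, at no more than 5 counts in any skin library and 33 to 355 counts in tumor libraries, and whether the counting could tell their shared bases apart by strand is not given in the sources used here.

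Btc stood at 0.664, 1.17 and 1.83 CPM in fl/fl mock skin and at 0.540 and 0.718 CPM in ΔK14 mock skin, the latter from 2 counts in each library. It stood at 2.38, 1.75 and 1.30 CPM in fl/fl treated skin and at 1.07, 5.46 and 4.89 CPM in ΔK14 treated skin. It stood at 3.01, 8.22 and 4.57 CPM in fl/fl tumors and at 2.90, 5.98 and 3.60 CPM in ΔK14 tumors. No neighbouring pair of groups in the order of its means was free of overlap, and it was the member of the chromosome 5 stretch that stayed below 10 CPM in tumors.

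Nrg1, the ErbB3 and ErbB4 ligand, stood at 14.9, 14.7 and 12.4 CPM in fl/fl mock skin and at 8.63 and 18.0 CPM in ΔK14 mock skin. It stood at 25.5, 22.3 and 26.4 CPM in fl/fl treated skin and at 29.1, 74.7 and 36.1 CPM in ΔK14 treated skin. It reached 360.1, 562 and 435 CPM in fl/fl tumors and 560, 757 and 949 CPM in ΔK14 tumors. The mock groups overlapped, fl/fl treated skin, ΔK14 treated skin and fl/fl tumors followed in steps without overlap, and the tumor groups overlapped each other by a narrow margin (560 CPM in ΔK14 against 562 CPM in fl/fl).

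Levels of different genes can be compared only per length of transcript, so CPM were divided by the kb of annotated exon of each gene and summed over the 8 ligand genes. That length merged the exons of all annotated transcripts, for example 1215 bases in Areg and 10351 in Nrg1. The shares depend on this choice, and other lengths were not tested. The sum was 68.6 ± 15.4 CPM per kb (SD, n = 3) in fl/fl mock skin, 75.4 ± 8.03 (n = 2) in ΔK14 mock skin, 47.9 ± 8.83 in fl/fl treated skin, 59.4 ± 16.8 in ΔK14 treated skin, 511 ± 144 in fl/fl tumors (676, 447 and 409 in replicates 1, 2 and 3) and 1504 ± 647 in ΔK14 tumors (n = 3 each). Epgn was the main contributor in mock skin, with 57.5% ± 6.93 of the sum in fl/fl and 54.8% ± 2.20 in ΔK14. In tumors Areg had the largest mean share, with 38.2%, 26.1% and 30.2% of the sum in the fl/fl libraries (Epgn was larger in replicate 2, at 29.5%) and 43.5%, 45.1% and 48.1% in the ΔK14 libraries. Between the tumor genotypes, the share of Areg was higher in every ΔK14 library and those of Hbegf and Btc were lower, without overlap, while the shares of the other 5 genes overlapped. A share also falls when other genes in the sum rise. The mean level of Hbegf was 604 CPM in ΔK14 and 332 CPM in fl/fl tumors, and that of Btc 4.16 and 5.26 CPM, with overlapping libraries. The share of Ereg was 12.9% ± 0.979 in fl/fl tumors and 13.2% ± 2.44 in ΔK14 tumors, against 2.63% or less in every skin library.

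**Figure D2:**
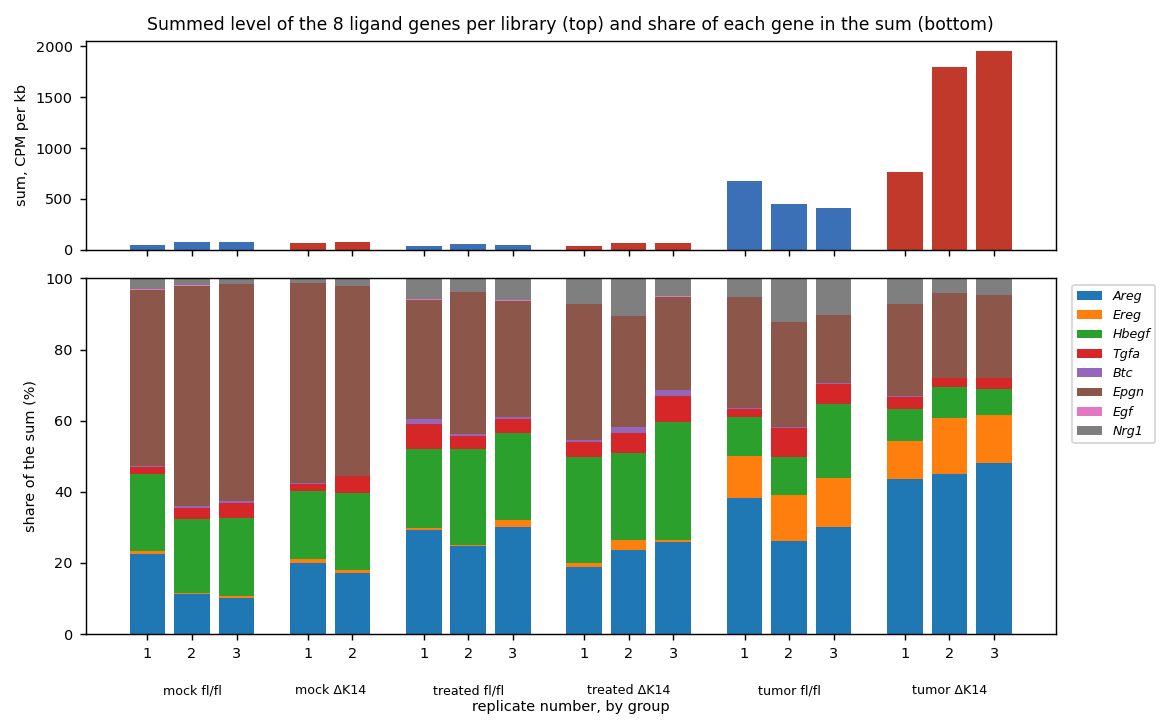
Summed level of the 8 ligand genes in CPM per kb of exon (top; blue bars fl/fl, red bars ΔK14) and the share of each gene in that sum in percent (bottom), per library. The sum was 39.9 to 81.0 CPM per kb in skin libraries and 409 to 1957 in tumor libraries, and Epgn had the largest share in mock skin and Areg the largest mean share in tumors.

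The comparison of tumors with skin asked which ligand genes changed with papilloma formation, and was made within each genotype by edgeR quasi-likelihood tests on the counts. A gene was called when its fold change exceeded 2 and its Benjamini-Hochberg adjusted p over all genes tested was below 0.05. Against mock skin in fl/fl, 5 of the 7 members tested were called, all of them higher, while 2.22% of all genes tested were called higher. Ereg rose by a log2 fold change of 7.56 (SE 0.34, adjusted p = 0.000490), Nrg1 by 4.98 (SE 0.31, adjusted p = 0.00243), Areg by 4.11 (SE 0.41, adjusted p = 0.00671), Tgfa by 3.46 (SE 0.52, adjusted p = 0.0199) and Hbegf by 2.19 (SE 0.33, adjusted p = 0.0199). Btc (log2 fold change 2.09, SE 0.59, adjusted p = 0.0822) and Epgn (1.77, SE 0.42, adjusted p = 0.0581) did not pass, although their tumor libraries lay above all mock libraries, as in 15.5% of all genes. DESeq2, the edgeR exact test and 1 edgeR fit of all libraries called both, which made 7 of 7. These called 2201 of 15394, 2058 of 15394 and 3205 of 18252 genes in either direction, against 632 of 15394 in the fit above. The median log2 fold change of the 7 members was 3.46, against -0.05 over all genes tested. Ereg was too low for the filter on low counts when fl/fl mock and treated skin were compared, so it entered here through its tumor level, and Egf did not pass. Btc, with 6 to 19 counts per fl/fl mock library, also passed that filter here through its tumor libraries. Calls of Ereg and Btc therefore add nothing to the counts of members above, nor does the lack of overlap of Btc. Without mock fl/fl replicate 2 only Ereg and Nrg1 were called, without mock replicate 3 or without tumor replicate 3 Areg, Ereg and Nrg1 were called, and without mock replicate 1, the library that stood apart, 6 members were called, Epgn being added. In the same order, those fits called 30 of 16550, 48 of 15459, 69 of 16979 and 3277 of 15636 genes.

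In ΔK14, all 7 members tested were called higher in tumors than in mock skin, where 7.05% of all genes tested were. Btc, with 2 counts in each mock library, passed the low-count filter through its tumor libraries, so its call adds nothing to that count. The log2 fold changes were 8.16 for Ereg (SE 0.77, adjusted p = 0.00563), 5.74 for Nrg1 (SE 0.50, adjusted p = 0.00461) and 5.53 for Areg (SE 0.57, adjusted p = 0.00631). They were 3.92 for Tgfa (SE 0.58, adjusted p = 0.0128), 3.03 for Epgn (SE 0.43, adjusted p = 0.0122) and 2.92 for Hbegf (SE 0.44, adjusted p = 0.0130). For Btc the fitted value was 2.60 (SE 0.63, adjusted p = 0.0407), but with 4 counts in all in ΔK14 mock skin the ratio of the summed counts was 6.90 with an exact 95% counting interval of 2.57 to 26.1, which covers counting error only. The tumor libraries of all 7 lay above the mock ones, as did those of 28.7% of all genes. The median over the members was 3.92, against -0.06 over all genes. Without ΔK14 tumor replicate 2 or replicate 3, Areg, Ereg and Nrg1 were called, without mock replicate 1 all but Btc were, and Btc was called in 1 of 5 such fits.

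Against treated skin the calls were steadier. In fl/fl, the 7 members tested were all called higher, where 7.5% of all genes were: Ereg by 7.17 (SE 0.62, adjusted p = 0.00116), Nrg1 by 4.16 (SE 0.24, adjusted p = 0.000446), Areg by 3.61 (SE 0.34, adjusted p = 0.00121), Tgfa by 3.45 (SE 0.36, adjusted p = 0.00176), Epgn by 3.01 (SE 0.38, adjusted p = 0.00271), Hbegf by 2.51 (SE 0.30, adjusted p = 0.00235) and Btc by 1.56 (SE 0.47, adjusted p = 0.0461). Ereg and Btc passed the low-count filter here through their tumor libraries, so their calls add nothing to that count. The tumor libraries of all 7 lay above the treated ones, as did those of 21.9% of all genes. All but Btc kept the call when any 1 library was left out, and Btc kept it in 1 of 6 such fits, without tumor replicate 1. In ΔK14, 6 of 7 members were called higher, against 10.5% of all genes, namely Ereg by 7.67 (SE 0.75, adjusted p = 0.000414), Areg by 5.52 (SE 0.49, adjusted p = 0.000285), Epgn by 4.19 (SE 0.35, adjusted p = 0.000214), Nrg1 by 3.89 (SE 0.41, adjusted p = 0.000501), Tgfa by 3.49 (SE 0.44, adjusted p = 0.00101) and Hbegf by 2.76 (SE 0.35, adjusted p = 0.00104). These 6 calls were kept in each of the 6 fits that left out 1 library. The tumor libraries of these 6 lay above all treated libraries, as did those of 28.4% of all genes. Btc was at 0.01 (SE 0.55, adjusted p = 0.989), its treated libraries spanning its tumor libraries. The comparisons with mock and with treated skin share their tumor libraries and are not independent of each other.

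Markers of other cells moved with these comparisons, and their part in the results was not tested. The hair matrix and shaft list stood at 387 to 1100 CPM in treated skin and at 7.39 to 71.7 CPM in tumors. The fibroblast list stood at 378 to 1679 CPM in skin and at 31.1 to 388 CPM in tumors. The basal keratinocyte list ran from 3021 to 14495 CPM in skin and from 8716 to 31405 CPM in tumors. The melanocyte list stood at 41.7 to 366 CPM in skin and at 9.14 to 38.4 CPM in tumors, without overlap. The sebaceous gland list stood at 549 to 1005 CPM in skin, at 548 to 760 CPM in ΔK14 tumors and at 616, 4249 and 7718 CPM in fl/fl tumors.

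**Figure D3:**
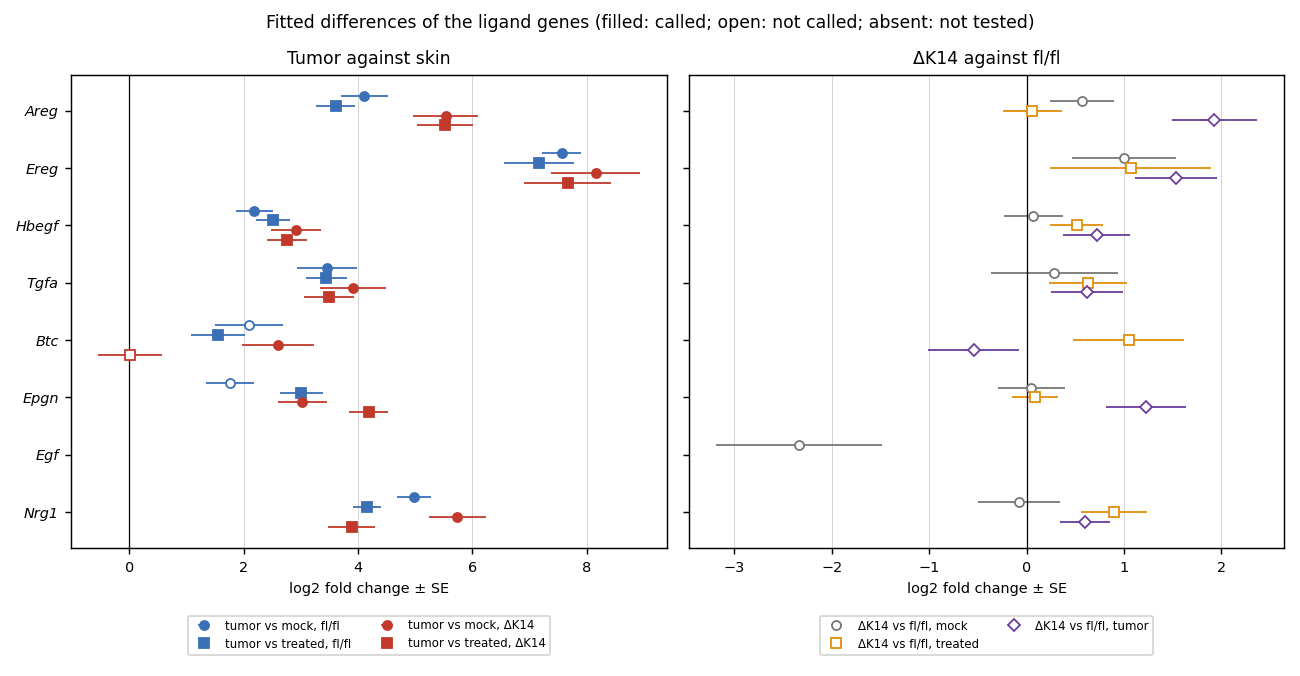
Fitted log2 fold changes of the ligand genes with their standard errors, for tumors against skin within each genotype (left) and for ΔK14 against fl/fl within each tissue (right). Filled symbols passed both thresholds, open symbols did not, and absent symbols were not tested; filled symbols appear on the left only, where Ereg lies farthest from 0 at 7.17 to 8.16.

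The comparison of treated with mock skin asked which ligand genes differed where DMBA and TPA had been applied but no tumor had formed. No member was called by edgeR in either genotype, where 0% of all genes tested were called. At an unadjusted p below 0.05 there were 2 members in fl/fl (5.5% of all genes) and 3 in ΔK14 (4.8%), and DESeq2 and the edgeR exact test also called 0 in both. Epgn was lower in treated skin in both genotypes, by a log2 fold change of -1.22 (SE 0.32, adjusted p = 0.651) in fl/fl and of -1.17 (SE 0.27, adjusted p = 0.701) in ΔK14 by edgeR. Its treated libraries lay below all mock libraries in both, as did those of 4.81% and 8.3% of all genes. Without mock fl/fl replicate 1, the one that stood apart, Epgn was called lower at -1.46 (edgeR adjusted p = 0.00494). In that fit 2587 of 17103 genes were called, so the call was not particular to Epgn. Nrg1 was at 0.84 (SE 0.19, edgeR adjusted p = 0.523) in fl/fl and at 1.82 (SE 0.56, edgeR adjusted p = 0.827) in ΔK14, and its treated libraries lay above all mock libraries in both, as did those of 5.39% and 7.78% of all genes. Areg was at 0.51 (SE 0.23, edgeR adjusted p = 0.888) in fl/fl, where its treated libraries also lay above all mock libraries, and at -0.0016 (SE 0.43) in ΔK14, where the groups overlapped. Btc in ΔK14, also without overlap, was at 2.58 (SE 0.94, edgeR adjusted p = 0.959), a ratio of summed counts of 6.4996 with an exact 95% counting interval of 2.44 to 24.5. With 2 counts in each ΔK14 mock library, Btc passed the low-count filter through its treated libraries. Its p and its lack of overlap therefore add nothing to the 3 members counted in ΔK14. The hair matrix and shaft list moved with these comparisons too, since it was low in all mock libraries but replicate 1; its part was not tested.

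The comparison of ΔK14 with fl/fl asked whether the ligand genes changed where keratinocytes lack TTP. In tumors, Areg stood at 844 ± 390 CPM in ΔK14 and 202 ± 97.0 CPM in fl/fl, Ereg at 855 ± 451 and 267 ± 53.8 CPM, and Epgn at 651 ± 254 and 254 ± 121 CPM (SD, n = 3 each). Without tumor fl/fl replicate 1 the fl/fl means were 146 CPM for Areg, 236 CPM for Ereg and 190.1 CPM for Epgn. No member was called by edgeR, where 0.0284% of all genes were called, and 4 members had an unadjusted p below 0.05, as did 14% of all genes. The log2 fold change was 1.93 for Areg (SE 0.44, adjusted p = 0.190), 1.54 for Ereg (SE 0.42, adjusted p = 0.228), 1.23 for Epgn (SE 0.41, adjusted p = 0.262) and 0.60 for Nrg1 (SE 0.26, adjusted p = 0.352) in the same edgeR fit. Areg and Ereg were higher in all ΔK14 tumors than in all fl/fl tumors, as were 13.7% of all genes tested. Hbegf (0.72, SE 0.34, edgeR adjusted p = 0.392), Tgfa (0.62, SE 0.37, edgeR adjusted p = 0.473) and Btc (-0.54, SE 0.47, edgeR adjusted p = 0.630) overlapped between genotypes.

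The call in tumors depended on the test and on 1 library. DESeq2 called Areg (adjusted p = 0.00208) and Ereg (adjusted p = 0.0206), and so did the edgeR exact test (adjusted p = 0.00499 and 0.0320). Each of these tests called 368 of 14067 genes, against 4 by the edgeR fit above. One edgeR fit of all libraries called Areg alone among the members (log2 fold change 2.06, adjusted p = 0.0398), where 122 of 18252 genes were called. Over all alternatives the edgeR or DESeq2 adjusted p of Areg ran from 2.48e-12 to 0.645 and that of Ereg from 2.32e-08 to 0.694, while their log2 fold changes stayed above 1.28. Without tumor fl/fl replicate 1, edgeR called Areg at 2.41 (adjusted p = 0.00191), Ereg at 1.74 (adjusted p = 0.0163) and Epgn at 1.66 (adjusted p = 0.00835). Over all genes, 2613 of 15463 were called without that library, so the gain in calls was not particular to the ligand genes. That library had the highest Areg, Ereg and Epgn levels of the fl/fl tumors, and its basal keratinocyte sum of 31405 CPM was nearer to the ΔK14 tumors (24859 to 26365 CPM) than to the other fl/fl tumors. The summed level of 9 leukocyte markers was 61.4 to 90.2 CPM in ΔK14 tumors and 17.5 to 35.6 CPM in fl/fl tumors, and that of 6 sebaceous gland markers was 548 to 760 CPM in ΔK14 tumors and 616 to 7718 CPM in fl/fl tumors. The part of these lists in the difference was not tested.

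**Figure D4:**
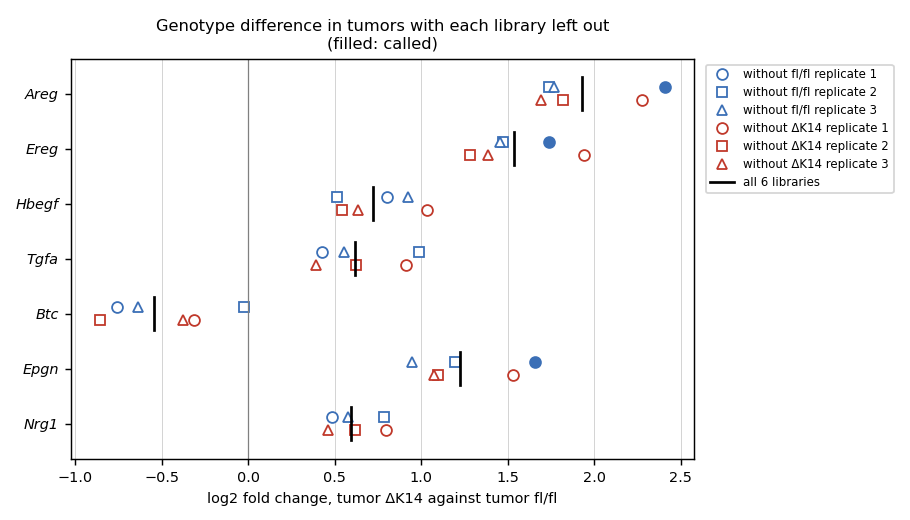
Log2 fold change of ΔK14 against fl/fl tumors for the 7 ligand genes tested, with each of the 6 libraries left out in turn; the black line is the value with all 6 libraries, and filled symbols passed both thresholds. The filled symbols are those of Areg (2.41), Ereg (1.74) and Epgn (1.66) without fl/fl replicate 1, a fit that called 2613 of 15463 genes. Areg lies between 1.69 and 2.41 throughout.

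In treated skin no member was called between genotypes by edgeR, where 0.00616% of all genes were called, and 1 member had an unadjusted p below 0.05, as did 5.55% of all genes. DESeq2 and the edgeR exact test also called 0. That member was Nrg1, at 0.90 on the log2 scale (SE 0.34, edgeR adjusted p = 0.897), higher in all ΔK14 than in all fl/fl libraries, as were 5.76% of all genes tested. It fell to 0.37 (edgeR adjusted p = 0.847) without ΔK14 replicate 2, the library at 74.7 CPM. Ereg was at 1.07 (SE 0.83), Btc at 1.05 (SE 0.57), Tgfa at 0.63 (SE 0.40) and Hbegf at 0.52 (SE 0.27), with edgeR adjusted p from 0.904 to 0.914 and overlapping groups. Ereg turned to -0.05 without that same ΔK14 library, which held 58 counts against 10 in each of the other ΔK14 libraries.

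In mock skin no member was called by edgeR, where 0% of all genes were called, and 1 member, Egf, had an unadjusted p below 0.05, as did 1.59% of all genes. Egf passed the low-count filter through its fl/fl libraries, where it was higher, so its p and its lack of overlap add nothing here. DESeq2 and the edgeR exact test also called 0. Egf held 2 counts in all in ΔK14 and 38 in fl/fl mock skin, a ratio of 0.199 with an exact 95% counting interval of 0.0232 to 0.770 (edgeR adjusted p = 1); its groups did not overlap, as with 5.58% of all genes lower in ΔK14. Areg (0.57, SE 0.33, edgeR adjusted p = 1) and Ereg (1.001, SE 0.53, edgeR adjusted p = 1) were higher in both ΔK14 libraries than in all fl/fl libraries, as were 6.96% of all genes. Ereg, with 7 to 14 counts per mock library, passed the low-count filter through its ΔK14 libraries, so its lack of overlap adds nothing. Hbegf, Tgfa, Epgn and Nrg1 ran from -0.08 to 0.28 with overlapping groups, and a term for mock replicate 1 called no member either.

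Whether the step from skin to tumor differed between genotypes was tested as the difference of the log2 fold changes, ΔK14 minus fl/fl. From treated skin to tumor no member was called by edgeR, where 0.0118% of all genes were called, and 2 members had an unadjusted p below 0.05, as did 13.2% of all genes. The difference was 1.93 for Areg (SE 0.58, edgeR adjusted p = 0.224) and 1.20 for Epgn (SE 0.51, edgeR adjusted p = 0.344), neither of which passed after adjustment. Without tumor fl/fl replicate 1, Areg was called (2.39, edgeR adjusted p = 0.0210), where 1352 of 17951 genes were called, against 2 of 17017 with all libraries. Ereg (0.53, SE 0.97), Hbegf (0.27, SE 0.47), Tgfa (0.06, SE 0.59), Nrg1 (-0.24, SE 0.45) and Btc (-1.53, SE 0.77) had edgeR adjusted p from 0.421 to 0.977. From mock skin to tumor 0 members were called by edgeR, where 0% of all genes were, and Areg was the member with an unadjusted p below 0.05, as were 8.18% of all genes (1.42, SE 0.64, edgeR adjusted p = 0.607). From mock to treated skin no member was called and none had an unadjusted edgeR p below 0.05, where 0% of all genes were called and 1.45% had such a p, and the values ran from -0.52 for Areg to 2.02 for Btc (SE 1.05). DESeq2 called 0 members in the 3 tests.

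The genes with the pattern most like each ligand were found by Pearson correlation of log2 CPM over the 17 libraries, among 18251 other genes. The libraries fall into skin and tumors, so these values mostly order genes by that step, and they share depth and scaling. Areg was most like Fst (r = 0.985), Ugcg (0.981) and Cotl1 (0.981), Hbegf like Ptpre (0.979), Npc2 (0.977) and Dusp5 (0.972), Tgfa like Prrg4 (0.989), Pxdc1 (0.983) and Pls3 (0.979), and Epgn like Sfr1 (0.982), Spry2 (0.976) and Dusp7 (0.976). For Ereg and Nrg1 an antisense gene that shares exonic bases was among the nearest 3, Gm19610 (0.991) beside Sh2d5 (0.982) and Slc20a1 (0.981), and Gm26578 (0.975) beside Il24 (0.977). Btc (Mal2, 0.928, and Slco1a5, 0.898) and Egf (Gm21811, 0.876, Abca5, 0.860, and AC140397.1, 0.850) had lower values. Among the members, Areg and Ereg correlated at 0.969 and Ereg and Nrg1 at 0.962, and Areg and Egf at -0.55.

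The genes that receive, release or restrain these ligands were taken from a list of 35, of which 31 to 33 passed the filter in each comparison. Among the receptors, Egfr stood at 366 ± 14.8 CPM in fl/fl mock skin and 271 ± 54.1 CPM in fl/fl tumors and was not called in any comparison, Erbb3 was not called either, and Erbb4, the receptor that Nrg1 can also use, was not tested. Erbb2, the receptor without a known ligand of its own, was lower in fl/fl tumors than in fl/fl treated skin (-1.17 on the log2 scale, edgeR adjusted p = 0.00595). Against mock skin 3 list genes were called higher and 2 lower in fl/fl tumors (of 32 tested), where 2.22% of all genes were called higher and 1.88% lower, and 6 higher and 2 lower in ΔK14 tumors (of 32), where 7.05% were called higher and 7.22% lower. Against treated skin 4 were higher and 3 lower in fl/fl and 7 higher and 3 lower in ΔK14 (of 32 each), where 7.5% of all genes were called higher and 10.5% lower in fl/fl, and 10.5% higher and 15.5% lower in ΔK14. No list gene was called by edgeR in the genotype comparisons, between treated and mock skin or in the tests of the difference between genotypes.

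Feedback inhibitors were the group with calls in both directions in all 4 comparisons of tumors with skin. Dusp4, a phosphatase that inactivates MAP kinases, rose by 3.10 to 3.98, Dusp5, a phosphatase of ERK, by 1.36 to 1.82, and Spry2, an inhibitor of receptor tyrosine kinase signalling, by 1.45 to 2.57 over the 4 comparisons. Spry1, a paralog of Spry2, fell (log2 fold changes from -3.25 to -1.95), and so did Lrig3, a transmembrane protein of a family whose member Lrig1 restrains EGFR (-2.76 to -2.67). Of the metalloproteases, Adam12 was called higher in ΔK14 tumors (5.53 against mock and 5.29 against treated skin). It held 0 to 4 counts per ΔK14 mock library and 2 to 11 per ΔK14 treated library, near the floor. Since it passed the low-count filter through its tumor libraries, its calls add nothing to the counts of list genes. Its level of 32.8 ± 15.1 CPM in ΔK14 tumors stood beside 3.95 ± 1.54 CPM in fl/fl tumors, and neither the genotype comparison nor the test of the difference between genotypes called it. Adam8 (3.12 against treated skin) and Adam10 (1.12 against mock skin), a main sheddase of Egf and Btc, were called once each in ΔK14, and Adam17, a main sheddase of Areg, Tgfa and Hbegf, was not called. Nrg2, another neuregulin gene, was called higher in 3 of the 4 comparisons (2.67 to 3.03), all but fl/fl tumors against mock skin. It held 6 to 8 counts per ΔK14 mock library, 5 to 29 per ΔK14 treated library and 9 to 28 per fl/fl treated library. In these comparisons it passed the low-count filter only with its tumor libraries, so its calls add nothing to the counts of list genes. Nrg4 was called lower in ΔK14 tumors against treated skin (-1.06). Grb2, the adaptor that links receptors to Ras, was higher in ΔK14 tumors than in treated skin (1.11).

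**Figure D5:**
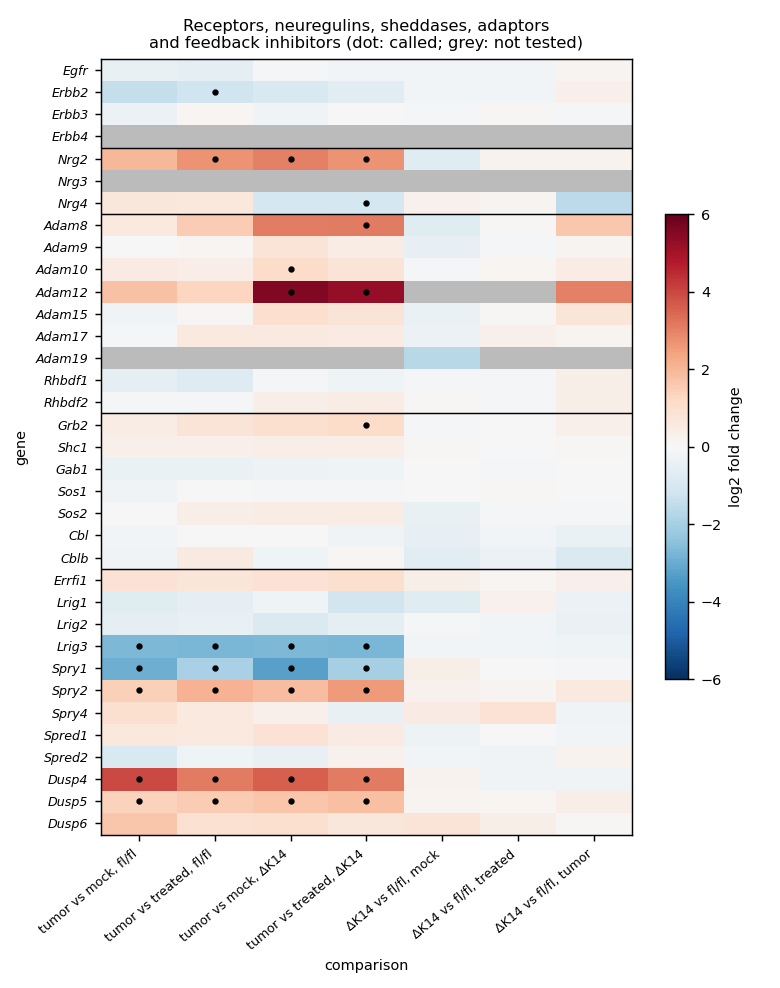
Log2 fold changes (colour) of 35 genes for receptors, other neuregulins, sheddases, adaptors and feedback inhibitors in 7 comparisons; dots mark genes that passed both thresholds and grey marks genes not tested. Lrig3 and Spry1 are blue with dots and Spry2, Dusp4 and Dusp5 red with dots in all 4 comparisons of tumors with skin, and no dot stands in the 3 comparisons of genotypes.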

How the data were processed

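Libraries were made from sorted epidermal cells with a NuGEN kit for low RNA input. The authors deposited raw counts of reads per gene, not normalized, in 1 table of 52636 genes and 18 columns. Per the labels' processing notes, the tools were Trimmomatic 0.36, STAR 2.5.3, HTSeq 0.9.1 and DESeq2 on mm10. The annotation release, the use of strand and the removal of duplicate reads are not given in the sources used here, so overlapping antisense genes may share reads and PCR duplicates may be counted. Each sample's group was taken from its title and labels, and the ΔK14 mock column that repeats another was counted once, which left 17 libraries of 2808550 to 9617985 counts. The members, gene lists and tests were chosen with earlier results of these data known, so they are no independent support for patterns seen before.

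Counts were tested with the edgeR 4.0.16 quasi-likelihood F test (R 4.3.3) after filterByExpr with its default minimum of 10 counts and TMM scaling, over the groups compared, with Benjamini-Hochberg adjustment over all genes tested. A call needed an adjusted p below 0.05 and a fold change above 2. The SE is the log2 fold change divided by the square root of F. CPM used TMM-scaled library sizes over all 17 libraries; log2 CPM for correlations used a prior count of 2. Genes named were all 8 members, Zfp36, the 3 genes most like each member, and the pathway genes called, up to 3 in each direction by smallest p in a comparison. Egfr, Erbb3, Erbb4, Adam8, Adam10, Adam17 and Grb2 were named after their values were seen. Of the genes most like Btc and Nrg1, 1 each is not reported here. Alternatives were DESeq2 1.42.0, the edgeR exact test, 1 fit of all libraries, RLE scaling, other count filters (none, or a mean count of at least 10), a replicate block, a term for mock replicate 1, the repeated column counted as a library, and each library left out, and for levels CPM on plain total counts. The tests were checked on simulated counts. Positions, exon lengths and 3′UTRs came from GENCODE M21, which held 52403 of the gene identifiers. Count intervals are exact at 95% and floors use 3 counts, both for counting error only. The longest annotated 3′UTR of each gene was searched; a planned search of protein sequences was not run.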

Additional observations from a re-analysis of the deposited data

How the results depend on the processing

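Values are numbers of ligand genes called, or log2 fold changes, under other processing. In tumors 0 ligand genes were called by genotype, where 4 of 14067 genes were. DESeq2 and the edgeR exact test called 2 each (368 of 14067 genes each). One fit of all libraries called 1 (122 of 18252 genes), and 3 were called without the filter on low counts (1393 of 32605 genes). With single libraries left out 0 to 3 were called. The 3 were called without fl/fl replicate 1 (2613 of 15463 genes), and the other left-out fits called 0 to 7 genes. The cause was not tested. With single libraries left out, tumors against mock skin gave 2 to 6 calls in fl/fl (5 with all) and 3 to 7 in ΔK14 (7 with all), and treated against mock fl/fl skin gave 0 to 1. Over all genes, tumors against mock fl/fl skin gave 30 to 3277 calls in those fits (632 with all). Treated against mock fl/fl skin gave 0 to 2587 (0 with all). Leaving out 1 ΔK14 tumor library gave 101 to 406 calls over all genes against ΔK14 mock skin (2144 with all). Without the filter on low counts, treated against mock ΔK14 skin gave 1 call (Nrg1), where 212 of 32416 genes were called. The difference between genotypes from treated skin to tumors gave 2 calls without that filter (1003 of 36391 genes) and 0 to 1 with libraries left out (0 to 1352 genes).

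Some small fold changes turned direction. Without the low-count filter, Hbegf was at -0.012 and Epgn at -0.036 by genotype in mock skin, and Areg at 0.095 from mock to treated ΔK14 skin. With the identical columns as separate libraries, Nrg1 was at 0.075 in the former and Areg at 0.0056 in the latter, where 1 fit of all libraries gave 0.0047.

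Replicate numbers were not shown to pair the samples between genotypes, since deviations of same-numbered samples correlated at -0.55 to -0.13 for treated skin and at -0.07 to 0.25 for tumors. In mock skin the 2 pairs correlated at 0.78 and 0.57, and between treated and mock ΔK14 skin at 0.57 and 0.14, where the block moved the calls over all genes from 0 to 110 and from 0 to 43, and those of ligand genes not at all. With the replicate block, Areg was at -0.032 by genotype in treated skin, Hbegf at -0.10 from mock to treated ΔK14 skin, and Ereg, Tgfa and Epgn at -0.042, -0.047 and -0.016 for the difference between genotypes over that step. The block left 6 of 7 calls in tumors against treated fl/fl skin and in tumors against mock ΔK14 skin.

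With single libraries left out, the following ranges crossed 0. By genotype in mock skin they were -0.18 to 0.26 for Hbegf, -0.64 to 0.83 for Tgfa, -0.17 to 0.20 for Epgn and -0.73 to 0.36 for Nrg1. By genotype in treated skin they were -0.11 to 0.35 for Areg, -0.051 to 2.39 for Ereg and -0.063 to 0.34 for Epgn. From mock to treated skin they were -0.31 to 0.48 for Tgfa and -0.39 to 0.046 for Egf in fl/fl, and -0.21 to 0.30 for Areg, -0.089 to 0.41 for Hbegf and -0.13 to 1.33 for Tgfa in ΔK14. From treated ΔK14 skin to tumors Btc ran from -0.40 to 0.42. For the difference between genotypes they were -1.06 to 1.40 for Ereg, -0.17 to 1.25 for Tgfa and -0.12 to 0.28 for Epgn from mock to treated skin, -0.054 to 1.38 for Tgfa from mock skin to tumors, and -0.78 to 1.68 for Ereg, -0.27 to 0.47 for Tgfa and -0.47 to 0.30 for Nrg1 from treated skin to tumors.

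With plain total counts in place of TMM, 42 of 48 group levels moved by less than 1 SD. No filter on low counts also shifted the all-gene median by over 0.1 in 5 comparisons. Depth limits Egf and Btc, which held few counts in most libraries.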
